A study of Mus musculus with 454 samples.

Results

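Nr4a1, Nr4a2 and Nr4a3 make up the NR4A family of orphan nuclear receptors. These 3 genes were taken by name from the 43346 genes of the count table, and all 3 passed the filter on low counts in each region. The study measured polyadenylated RNA in mouse brain libraries from 4 regions. The region labels are AMY (115 libraries), which stands for the amygdala, Nac (112), for the nucleus accumbens, PFC (112), for prefrontal cortex, and VTA (115), for the ventral tegmental area. Females and males, group-housed (label G) or socially isolated (label SI), were given saline or 7.5 mg/kg cocaine on an acute (label A) or a chronic (label CHR) schedule, which made 64 groups of 5 to 8 libraries. Strain, genotype, age, the length of the chronic schedule and the time from the last injection to collection are not in the labels used here. Since no label states that each library of a region is a different animal, p-values cover the spread between libraries, some of which may be technical.

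The family is known as a set of transcription factors that act without a known activating ligand, so that their activity follows the amount of protein made. Nr4a1 (also Nur77) and Nr4a3 (also Nor1) are textbook immediate early genes, switched on within a short time of synaptic activity or cAMP signalling, and CREB is known to act on their promoters. Nr4a2 (also Nurr1) shares this inducibility but is best known as a lasting identity factor of midbrain dopamine neurons, where it keeps up genes of dopamine synthesis and transport. It also marks neurons of the claustrum and of the deepest cortical layer. All 3 proteins can bind the DNA motif known as the NBRE, and Nr4a1 and Nr4a2 can pair with retinoid X receptors.

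On GRCm38/mm10, in the GENCODE M21 annotation, Nr4a1 (ENSMUSG00000023034.6) lies on chromosome 15 from 101254269 to 101274795 on the plus strand. Nr4a2 (ENSMUSG00000026826.9) lies on chromosome 2 from 57106830 to 57124003 on the minus strand. Nr4a3 (ENSMUSG00000028341.5) lies on chromosome 4 from 48045153 to 48086447 on the plus strand. The 250 bases before each RefSeq start site (GRCm38.p6) are shown because the genes are known targets of CREB and were lower together in AMY and PFC in the comparison of schedules given further on. Capitals mark each half-site of the cAMP response element, which reads TGACG on one strand and CGTCA on the other. The windows are chr15:101266596-101266845 on the plus strand, chr2:57124004-57124253 on the minus strand and chr4:48045055-48045304 on the plus strand, each read 5′ to 3′ on the strand of the gene. The window of Nr4a1 lies inside the annotated gene, ahead of an internal start, and that of Nr4a3 runs past the annotated start of the gene, so that its last half-site lies within the gene.
Nr4a1: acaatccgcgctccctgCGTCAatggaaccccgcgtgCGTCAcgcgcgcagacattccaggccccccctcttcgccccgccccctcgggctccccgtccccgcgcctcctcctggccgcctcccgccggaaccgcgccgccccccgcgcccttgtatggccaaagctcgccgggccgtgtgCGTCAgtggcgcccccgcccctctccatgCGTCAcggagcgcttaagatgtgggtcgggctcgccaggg
Nr4a2: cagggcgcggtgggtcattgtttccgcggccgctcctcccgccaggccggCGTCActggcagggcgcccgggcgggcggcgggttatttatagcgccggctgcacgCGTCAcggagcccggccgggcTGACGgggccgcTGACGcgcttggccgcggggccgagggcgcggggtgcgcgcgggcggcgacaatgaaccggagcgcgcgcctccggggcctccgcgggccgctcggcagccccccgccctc
Nr4a3: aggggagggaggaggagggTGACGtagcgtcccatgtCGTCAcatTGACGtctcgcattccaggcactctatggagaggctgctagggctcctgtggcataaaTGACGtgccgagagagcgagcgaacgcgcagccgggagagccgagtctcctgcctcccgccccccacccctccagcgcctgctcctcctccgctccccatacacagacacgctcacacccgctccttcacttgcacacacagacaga

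Each window held 4 half-sites. They lay 228, 208, 64 and 35 bases before the start in Nr4a1, 195, 139, 118 and 106 bases in Nr4a2, and 226, 208, 200 and 142 bases in Nr4a3. Of 32817 promoter windows of the same length in the table, 17.8% held at least 1 half-site and 0.137% held 4 or more. The whole palindrome TGACGTCA was in none of the 3 windows and in 1.55% of all windows. The NBRE, searched as AAAGGTCA on both strands, was in none of the 3 and in 1.34% of all. The letters TATAAA were found once, 158 bases before the start of Nr4a2, and in 12.4% of all windows. The motifs were searched on both strands, and the half-site is part of the palindrome. The windows were 74.4% (Nr4a1), 80.0% (Nr4a2) and 63.6% (Nr4a3) G and C. These matches describe letters only.

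Library totals ran from 11.21 M to 52.34 M counts (M for mega), with a median of 21.71 M. Levels are given in CPM, a gene's counts per M counts of its library, scaled over the libraries of all regions. The raw counts ran from 96 to 3736 for Nr4a1 (median 809), from 15 to 4489 for Nr4a2 (median 369) and from 30 to 3553 for Nr4a3 (median 438). Counting error weighs most for Nr4a2 in Nac and Nr4a3 in VTA, where the lowest libraries had 0.834 and 1.71 CPM. There it may make up a good part of the spread among the lowest libraries, though Nr4a2 in Nac ran up to 91.2 CPM. Region labels matched their marker lists: the dopamine neuron list averaged 7.85 log2 CPM in VTA and at most 1.62 elsewhere, the striatal list 8.51 in Nac and at most 5.13 elsewhere, and the cortical glutamatergic list 7.53 in PFC and at most 5.34 elsewhere. The medial amygdala and hypothalamus list averaged 3.95 in AMY and at most 1.61 elsewhere. Libraries that stand apart from the rest of their region numbered 6 (AMY), 3 (Nac), 7 (PFC) and 4 (VTA), and 6, 2, 0 and 4 of these did so on choroid plexus genes. The numbers in the sample titles fall into ranges, called series 500, 1000, 1100 and 1200 here after the round number each range starts at or lies above. The labels do not say what a range stands for. Both acute arms are in series 1000 and 1100. Chronic saline is in series 500 and 1200 and chronic cocaine in series 1000 and 1200, so a chronic comparison within a series is possible only in series 1200, with 8 cocaine libraries per region. Nor does a shared series always mix the drug arms. In series 1000, acute cocaine and acute saline libraries of each housing lie in separate stretches of title numbers. In series 1100 only the lowest title numbers mix the arms, and the rest lie in separate stretches by housing and drug. In series 1200, every cocaine number is below every saline one. Drug and stretch of numbers cannot be told apart in these cases.

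The 3 genes had different homes in the brain. Nr4a1 and Nr4a3 were highest in PFC and lowest in VTA, and Nr4a2 was highest in VTA and lowest in Nac. Nr4a1 measured 90.9 ± 33.0 CPM (SD, n = 112) in PFC, where libraries ran from 35.8 through a median of 91.5 to 174 CPM. Nac had a mean of 57.5 ± 23.2 CPM (n = 112). It measured 33.0 ± 10.6 CPM (n = 115) in AMY and 10.8 ± 3.61 CPM (n = 115) in VTA. Nr4a3 followed the same order, at 69.2 ± 28.1 CPM in PFC, 28.4 ± 18.8 in Nac, 24.1 ± 17.5 in AMY and 4.85 ± 3.25 in VTA, with the same n. Nr4a2 measured 85.4 ± 28.5 CPM in VTA, from 22.9 through 89.1 to 137 CPM over libraries. It measured 22.1 ± 10.4 CPM in PFC and 14.1 ± 5.64 CPM in AMY. In Nac its mean of 7.15 ± 14.2 CPM hid a skewed spread: the lowest library had 0.834 CPM, the median was 2.10 CPM and the highest library had 91.2 CPM.

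**Figure D1:**
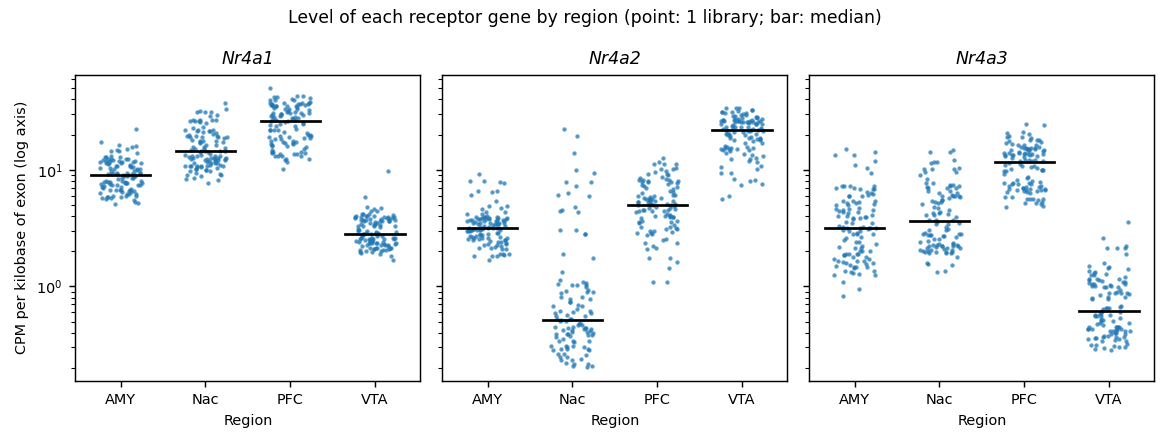
Level of each gene in CPM per kilobase of exon (log axis) by region, with 1 point per library and a bar at the median. Nr4a1 and Nr4a3 descend from PFC to VTA, whereas Nr4a2 peaks in VTA and spreads over the widest range in Nac.

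Neighbours in each order differed by a paired test over libraries of the same title number, though the spread of the pairs was wider than the mean difference for Nr4a2 in PFC against AMY and for Nr4a3 in Nac against AMY. On the log2 CPM scale, Nr4a1 was higher in PFC than in Nac by 0.68 (SD 0.44, higher in 92 of 99 pairs), higher in Nac than in AMY by 0.75 (96 of 101) and higher in AMY than in VTA by 1.57 (102 of 102). Nr4a2 was higher in VTA than in PFC by 2.02 (SD 0.85, 105 of 106), higher in PFC than in AMY by 0.54 (SD 0.68, 86 of 102) and higher in AMY than in Nac by 1.92 (86 of 101). Nr4a3 was higher in PFC than in Nac by 1.41 (99 of 99) and higher in AMY than in VTA by 2.08 (102 of 102). For these 8 comparisons the permutation test (100000 sign flips, two-sided) gave an adjusted p of 1.13e-05, the smallest it can give over 9 comparisons. The closest pair of levels was Nr4a3 in Nac and AMY, with a difference of 0.26 (SD 0.72, 69 of 101 pairs, permutation adjusted p = 3.70e-04).

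Between genes, levels were compared per kilobase of exon (3.51 kb for Nr4a1, 4.06 kb for Nr4a2 and 5.99 kb for Nr4a3). Nr4a1 had the highest level of the family in PFC, at 25.9 ± 9.42 CPM per kb, against 11.6 ± 4.69 for Nr4a3 and 5.44 ± 2.56 for Nr4a2. It also led in Nac (16.4 ± 6.61, against 4.74 ± 3.14 for Nr4a3 and 1.76 ± 3.50 for Nr4a2) and in AMY (9.41 ± 3.02, against 4.03 ± 2.92 and 3.46 ± 1.39 in the same order). In VTA the order turned: Nr4a2 stood at 21.1 ± 7.02 CPM per kb, Nr4a1 at 3.06 ± 1.03 and Nr4a3 at 0.810 ± 0.543. These orders between genes were not tested.

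Among the edgeR comparisons, more values of the family passed between the schedules than in any other. Within number series 1000, the only series that holds both cocaine schedules, 11 of 12 values (3 genes in 4 regions) were lower after chronic than after acute cocaine. The exception was Nr4a2 in Nac. Of the 12, 9 passed edgeR's test at an adjusted p of 0.05, and all 9 were lower with the chronic schedule. Of all genes tested, 4.31% were lower by the same criterion in AMY, 1.76% in Nac, 5.6% in PFC and, the most, 12.7% in VTA. Higher with the chronic schedule were 868 of 16722 genes in AMY and 448 of 16579 in Nac. In PFC 1024 of 16333 were higher, and in VTA 2067 of 16501. Nr4a3 passed in all 4 regions, Nr4a1 in AMY, PFC and VTA, and Nr4a2 in AMY and PFC.

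A shared series does not make these libraries alike in all but the schedule. Title numbers of acute and chronic libraries do not mix within series 1000, since every chronic number is above every acute one, and the chronic numbers form 2 runs with a gap between them. Each run holds both sexes and both housings. Nr4a3 differed between the runs: in Nac it ran from 16.5 through 24.8 to 43.9 CPM in the lower run (n = 11) and from 9.40 through 12.1 to 14.5 CPM in the higher run (n = 10), and in PFC from 50.7 through 64.3 to 92.3 CPM (n = 11) and from 33.8 through 41.2 to 46.9 CPM (n = 9). In both regions these ranges did not overlap. Those of Nr4a3 in AMY and VTA, and of Nr4a1 and Nr4a2 in every region, did overlap between the runs. The share of all genes whose ranges separate the runs was not counted. Against all acute cocaine libraries of the series, a split added after the data were seen, 6 of 12 values passed as lower with the lower run alone and 10 of 12 with the higher run alone (edgeR, adjusted p of 0.05). Of all genes, 5.35%, 0.448%, 1.33% and 7.76% were lower in AMY, Nac, PFC and VTA with the lower run, and 0.923%, 2.15%, 8.95% and 10.4% with the higher run. With the lower run, Nr4a3 in Nac measured -0.70 (adjusted p = 0.0508), Nr4a1 in AMY -0.29 (adjusted p = 0.178) and Nr4a2 in AMY -0.42 (adjusted p = 0.0561), and none of the 3 passed. With the higher run, Nr4a3 measured -1.81 in Nac, -1.65 in AMY, -1.16 in PFC and -1.32 in VTA, against -0.70, -0.92, -0.46 and -0.87 with the lower run. Nr4a1 in Nac passed with the higher run alone (-0.73, adjusted p = 0.00798). The calls in PFC and VTA, and that of Nr4a3 in AMY, held with each run. The labels do not say what a run stands for, so the schedule and the run of numbers cannot be told apart.

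In VTA, Nr4a1 ran from 10.1 through a median of 12.4 to 14.5 CPM in 16 acute cocaine libraries and from 6.68 through 8.19 to 9.42 CPM in 21 chronic cocaine libraries. These ranges did not overlap, and the fitted difference, chronic minus acute, was -0.60 log2 units (SE 0.05, edgeR's adjusted p = 1.34e-11). The share of all genes whose ranges separate the schedules in this way was not counted. Nr4a3 in VTA ran from 3.55 through 6.22 to 12.9 CPM with acute cocaine and from 1.83 through 3.01 to 4.80 CPM with chronic cocaine. Its ranges overlapped at their edges, and its difference was -1.06 (SE 0.12, adjusted p = 4.75e-08). Nr4a2 in VTA ran from 30.4 through 101 to 132 CPM against 33.2 through 80.1 to 127 CPM. These ranges lay over each other, with a difference of -0.20 (SE 0.15, 95% interval -0.50 to 0.10, adjusted p = 0.360). The dopamine neuron list moved the other way in the same libraries: 4 of its 10 genes were higher with the chronic schedule and 0 were lower, and its median difference was 0.38, against 0.00276 over all genes. With the mean of that list as a covariate, added after the data were seen, Nr4a2 measured -0.58 (SE 0.07, adjusted p = 1.35e-07). Calls were common in that fit: 30.2% of all genes passed in either direction, against 25.2% without the covariate. All 10 microglial genes were higher as well in these VTA libraries (median 0.35), while 5 of 11 claustrum and subplate-type genes and 4 of 9 measured medial amygdala and hypothalamus genes were lower. Their part in the result was not tested.

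In PFC, Nr4a1 ran from 73.7 through 124 to 146.5 CPM in 15 acute cocaine libraries and from 35.8 through 57.1 to 104 CPM in 20 chronic ones, a difference of -0.97 (SE 0.11, edgeR adjusted p = 5.50e-07). Nr4a3 there ran from 70.8 through 83.7 to 127 CPM against 33.8 through 54.2 to 92.3 CPM (-0.74, SE 0.11, adjusted p = 2.86e-05). Nr4a2 ran from 18.9 through 32.8 to 45.6 CPM against 10.4 through 19.4 to 36.6 CPM (-0.66, SE 0.14, adjusted p = 0.00262). The ranges overlapped for each gene, though for Nr4a1 and Nr4a3 the chronic median lay under the lowest acute library. With the claustrum and subplate-type list as a covariate the values were -0.91, -0.74 and -0.71 for Nr4a1, Nr4a2 and Nr4a3. Several cell-type lists moved in these PFC libraries: 6 of 10 microglial genes, 3 of 10 oligodendrocyte genes and 4 of 10 endothelial genes were higher with the chronic schedule. Their part in the result was not tested.

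In AMY, Nr4a3 ran from 17.8 through 34.2 to 70.9 CPM in 14 acute cocaine libraries and from 8.74 through 15 to 30.4 CPM in 22 chronic ones. The highest chronic library stayed under the acute median, and the difference was -1.20 (SE 0.17, edgeR adjusted p = 6.55e-05), the largest fall of a receptor gene in this comparison. Nr4a2 (-0.52, SE 0.12, adjusted p = 0.00643) and Nr4a1 (-0.40, SE 0.12, adjusted p = 0.0278) were also lower in AMY. Without the libraries that stand apart the 3 AMY values were -1.08, -0.39 and -0.40, in the same order, and all passed. Of the medial amygdala and hypothalamus list, 4 of 11 genes were lower and 1 was higher in these libraries, and 7 of 10 endothelial, 4 of 10 microglial and 4 of 10 astrocyte genes were higher, shifts whose part was not tested.

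In Nac, Nr4a3 ran from 15.1 through 43.5 to 69.8 CPM in 14 acute cocaine libraries and from 9.40 through 16.5 to 43.9 CPM in 21 chronic ones (-1.12, SE 0.19, edgeR adjusted p = 9.53e-04). Nr4a1 ran from 35.3 through 64.4 to 104 CPM against 30.0 through 44.3 to 109 CPM, and its difference of -0.42 (SE 0.15, adjusted p = 0.0923) did not pass. Nr4a2 had the opposite sign, 1.3 (SE 0.52, adjusted p = 0.125). Its acute libraries lay between 1.17 and 4.30 CPM, and its chronic ones reached from 0.886 to 32.0 CPM around a median of 1.81 CPM, so the difference rested on a few high chronic libraries. With the cortical glutamatergic list as a covariate it was 0.02 (SE 0.29).

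The other rapid activity genes, a list of 29 immediate early and early response genes that leaves out the NR4A family, were lower in part, with the highest count in PFC. There 26 of 29 were lower after chronic than after acute cocaine and 0 were higher, with a median of -0.72 against 0.0133 over all genes. In AMY 16 of 29 were lower and 1 was higher (median -0.32), in Nac 7 of 29 and 1 (median -0.14), and in VTA 15 of 28 and 0 (median -0.29). Without the libraries that stand apart, 15, 7, 26 and 18 were lower in AMY, Nac, PFC and VTA. Fos, which encodes a subunit of the AP-1 factor, fell by 0.63, 0.88, 1.54 and 1.43 across AMY, Nac, PFC and VTA on the log2 scale. Egr1, a zinc finger factor of the same early wave, fell by 0.86 in PFC (adjusted p = 6.60e-05) and by 1.46 in VTA (adjusted p = 2.12e-08), and measured -0.12 in AMY and -0.14 in Nac (adjusted p of 0.660 and 0.523). Arc, which acts at the synapse, fell by 1.62 in PFC and 0.52 in AMY and measured -0.12 in Nac and 0.09 in VTA. Npas4, a factor induced by calcium influx, fell by 0.26 in VTA (adjusted p = 0.0379) and measured -0.45 in PFC (adjusted p = 0.189). Nr4a3 had a lower value than any of the 29 rapid genes in AMY and in Nac. In PFC, 6 of 29 rapid genes lay below Nr4a1 and 14 below Nr4a3, and in VTA 7 and 5 of 28 did.

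**Figure D2:**
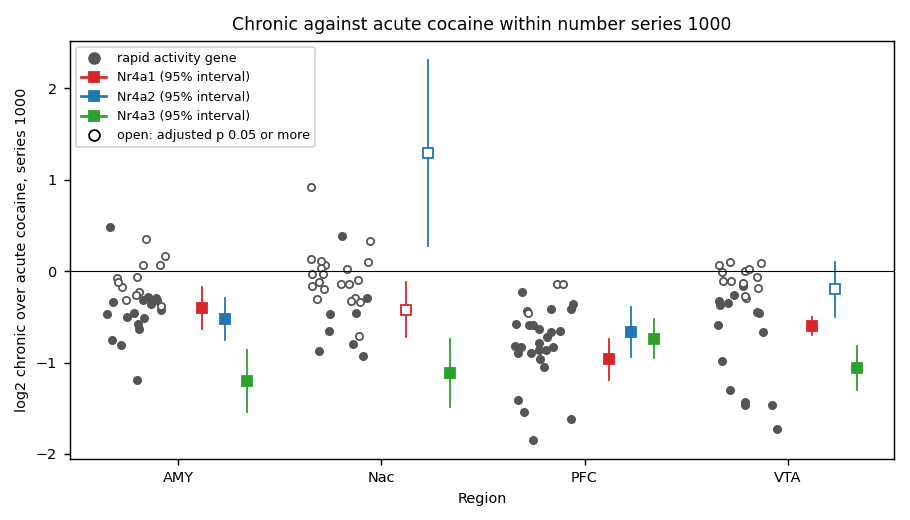
Log2 difference, chronic minus acute cocaine within series 1000, by region: circles are the 29 rapid activity genes (28 in VTA), squares the receptor genes with 95% intervals, and filled symbols have an adjusted p under 0.05. Nr4a3 is the lowest of the receptors in AMY, Nac and VTA, and Nr4a1 in PFC.

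Genes tied to the receptors by function gave fewer calls than the rapid activity genes in each region, a difference that was not tested. Of 14 NR4A partners and corepressors, 2 each were lower in AMY, PFC and VTA and 0 in Nac, and 1 was higher, in VTA (edgeR, 0 at an unadjusted p under 0.05 in Nac). In VTA these counts were near the shares of all genes. Over all genes in Nac, 4022 of 16579 had an unadjusted p under 0.05. The lower partners included Rcor1, a CoREST scaffold that is known to join Nurr1 (-0.22 in AMY, adjusted p = 0.00810, and -0.14 in PFC, adjusted p = 0.0163) and the retinoid X receptor Rxrg in VTA (-0.54, adjusted p = 3.76e-04). Rxrg is also on the striatal list, of which Rgs9 (-0.62) and Drd1 (-0.54) were lower and Drd2 (0.46) was higher in VTA. Of 20 genes known to act upstream of NR4A transcription, 2 were lower in AMY, 4 in PFC and 7 in VTA, and 2 were higher, in VTA. The CREB coactivator gene Crtc3 was lower in VTA (-0.23, adjusted p = 3.60e-06), as was Creb1 itself (-0.15, adjusted p = 0.00463). Crem, a CREB relative, was lower in PFC (-0.27, adjusted p = 0.00380), and the serum response factor gene Srf was lower in PFC (-0.22, adjusted p = 0.00110) and AMY (-0.17, adjusted p = 0.0244). Of the 18 dopamine neuron genes ascribed to NURR1, 5 were higher and 2 lower in VTA. Of all 16501 genes tested there, 2067 were higher and 2095 lower, so the count of lower genes was near the share of all genes. The dopamine transporter gene Slc6a3 (0.65, adjusted p = 0.0168) and the receptor gene Drd2 (0.46, adjusted p = 0.0186) were higher, and the neuropeptide gene Vip (-1.80, adjusted p = 3.31e-08) and the forkhead factor gene Foxa2 (-0.32, adjusted p = 0.00931) were lower. The NURR1 list shares genes with the dopamine neuron list, Slc6a3 among them.

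The saline arms had the same order of levels. Nr4a1 in PFC ran from 77.9 through 113 to 149 CPM in 28 acute saline libraries and from 43.1 through 59.9 to 106 CPM in 26 chronic saline ones. Nr4a3 in VTA ran from 3.34 through 6.18 to 15.6 CPM (n = 28) against 1.71 through 2.21 to 3.44 CPM (n = 29). Nr4a3 in AMY had medians of 30.8 CPM (n = 27) and 9.79 CPM (n = 30), and in Nac of 32.2 CPM (n = 27) and 13.1 CPM (n = 28). The acute groups thus lay high with or without cocaine. The saline schedules share no number series, so that schedule and series cannot be told apart in them, and no test was made.

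**Figure D3:**
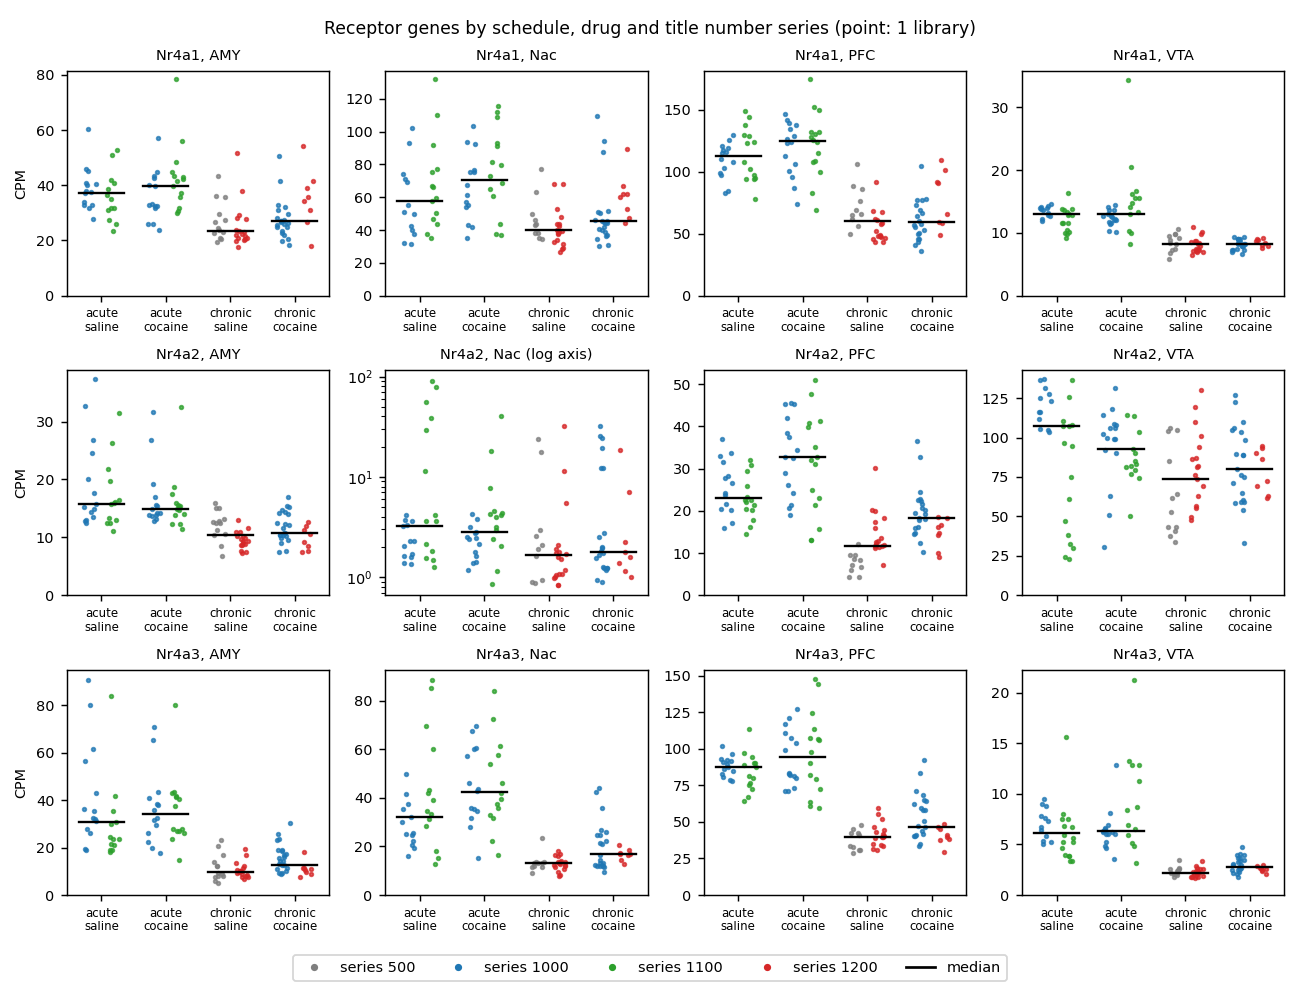
CPM of each gene (rows) in each region (columns) by schedule and drug, with 1 point per library coloured by title number series and a bar at the median. In most panels both acute arms sit above both chronic arms, and in PFC the series 500 saline libraries of Nr4a2 sit lowest.

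Acute cocaine, set against acute saline over both sexes and housings, moved none of the 3 genes past the threshold. The count was 0 of 12 values with edgeR, DESeq2 and limma voom, and 5 of 12 had an unadjusted p under 0.05 with edgeR. Of all genes, 0% passed in AMY and Nac, 0.0647% in PFC and 0.0467% in VTA, so the threshold was rarely reached. An unadjusted p under 0.05 was found for 538 of 17391 genes in AMY and 894 of 17266 in Nac. In PFC it was found for 1802 of 17003 and in VTA for 1110 of 17144. Nr4a2 in PFC came nearest. It ran from 14.6 through 23.0 to 37.1 CPM in 28 saline libraries and from 13.0 through 32.7 to 51.0 CPM in 30 cocaine libraries, 23 of which lay above the saline median (log2 difference 0.38, SE 0.12, 95% interval 0.13 to 0.62, adjusted p = 0.313). Nr4a3 was 0.29 higher in VTA (interval 0.08 to 0.51, adjusted p = 0.511) and 0.38 higher in Nac (0.09 to 0.67, adjusted p = 0.798). Nr4a1 differed by 0.06 in AMY (-0.14 to 0.26), 0.19 in Nac (-0.07 to 0.44), 0.11 in PFC (-0.06 to 0.28) and 0.14 in VTA (0.01 to 0.26).

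Nr4a2 in Nac had the widest acute interval: -0.98 (SE 0.46, -1.89 to -0.08, adjusted p = 0.919). Saline libraries ran from 1.25 through 3.27 to 91.2 CPM (n = 27) and cocaine libraries from 0.850 through 2.79 to 40.5 CPM (n = 28). The medians were close, and the highest libraries of both arms were in series 1100. With the cortical glutamatergic list as a covariate the difference was 0.08 (SE 0.19). Within series 1000, where no acute library passed 4.30 CPM, it was -0.08 (SE 0.22), and within series 1100 it was -1.37 (SE 0.72).

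Of the other rapid activity genes, 2 of 29 rose with acute cocaine in PFC, the AP-1 relative Maff (0.48, SE 0.10, edgeR adjusted p = 0.0150) and the kinase gene Sik1 (0.44, SE 0.10, adjusted p = 0.0241). The list's median was 0.14, against 0.00 over all genes, and 13 of 29 had an unadjusted p under 0.05. Of all genes in PFC, 1802 of 17003 had such a p. In AMY, Nac and VTA, 0 of 29, 29 and 28 passed, with 2, 5 and 6 at an unadjusted p under 0.05. Fos measured 0.19 in PFC, 0.20 in AMY, -0.02 in Nac and 0.22 in VTA, with adjusted p-values of 0.652, 1, 0.996 and 0.743.

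Split by housing, the acute value of Nr4a2 in PFC did not pass in either group and was higher in group-housed mice. There it ran from 14.6 through 22.9 to 32.0 CPM with saline (n = 14) and from 13.0 through 38.5 to 51.0 CPM with cocaine (n = 15), and 13 of these 15 exceeded the saline median (0.69, SE 0.18, edgeR adjusted p = 0.104). That value passed without the libraries that stand apart (0.72, adjusted p = 0.0492) and when the model held a term for the series (0.68, adjusted p = 0.0345). In isolated mice it ran from 16.3 through 24.7 to 37.1 CPM with saline (n = 14) and from 13.1 through 26.2 to 40.8 CPM with cocaine (n = 15), a difference of 0.07 (SE 0.18). The difference between the housings was -0.62 (SE 0.25, unadjusted p = 0.0145, adjusted p = 1), which did not pass. The claustrum and subplate-type list, made of markers of other neurons that hold Nr4a2, averaged 4.14 ± 0.16 log2 CPM with acute cocaine and 4.04 ± 0.18 with saline in PFC. With that list as a covariate the group-housed value was 0.53 (adjusted p = 0.196).

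None of the 12 group-housed and none of the 12 isolated values passed for acute cocaine, with 4 and 1 at an unadjusted p under 0.05. The shares of all genes that passed were 0%, 0.0174%, 0.0647% and 0.332% with group housing and 0%, 0%, 0% and 0.554% with isolation, in the order AMY, Nac, PFC and VTA. Of the 17391, 17266, 17003 and 17144 genes tested, 1889, 822, 1750 and 2736 had an unadjusted p under 0.05 with group housing. With isolation 504, 948, 421 and 1472 did. For the difference between housings, 0 of 12 passed, beside 0%, 0%, 0% and 1.28% of all genes. At an unadjusted p under 0.05 there were 3 of 12, beside 1719, 889, 437 and 3195 of all genes tested, in the same order. In VTA, Nr4a2 differed between saline and cocaine by -0.37 in group-housed and 0.32 in isolated mice, and the difference between them was 0.69 (SE 0.28, edgeR adjusted p = 0.160).

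By number series, 0 of 12 acute values passed in series 1000 and 0 of 12 in series 1100, with 4 and 3 at an unadjusted p under 0.05. Of all genes, 0%, 0%, 0.0123% and 0.00604% passed in series 1000 and 0%, 0%, 0.00612% and 0% in series 1100, in the same order of regions. Nr4a2 in PFC measured 0.36 (SE 0.15) and 0.41 (SE 0.17). Nr4a3 in VTA measured -0.09 (SE 0.12) in series 1000 and 0.62 (SE 0.22) in series 1100. Nr4a1 in VTA likewise measured -0.11 (SE 0.05) and 0.33 (SE 0.13). Nr4a2 in VTA had 94.9 ± 26.0 CPM with cocaine (n = 16) and 119.8 ± 12.1 with saline (n = 12) in series 1000. There 1 of the 16 cocaine libraries lay above the saline median. In series 1100 it had 86.6 ± 17.1 CPM with cocaine (n = 13) and 76.05 ± 39.2 with saline (n = 16), with 6 of 13 above. The difference between the series was not tested. In series 1000, and in series 1100 apart from its lowest numbers, the drug arms of each housing lie in separate stretches of title numbers. A shared series thus does not make them alike in all but the drug.

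**Figure D4:**
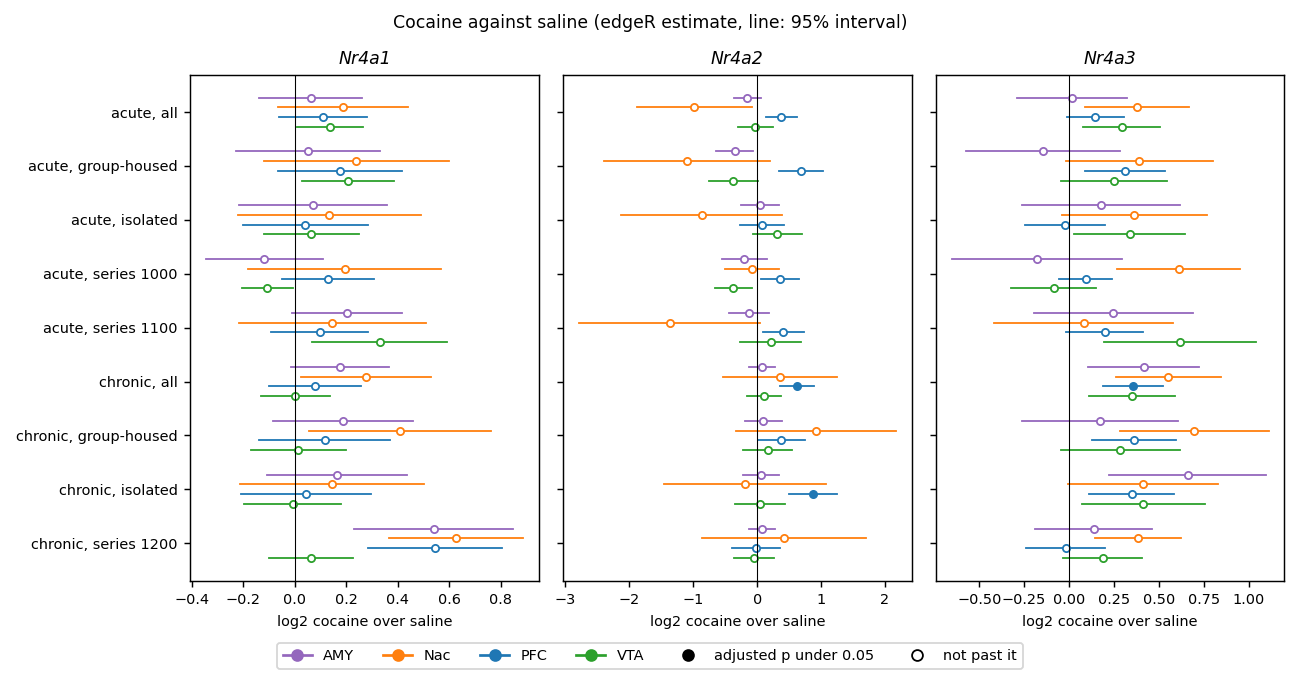
Log2 difference, cocaine over saline, with its 95% interval, for each gene (panel), comparison (row) and region (colour). Filled symbols, at an adjusted p under 0.05, are Nr4a2 in PFC with chronic cocaine over all mice and in isolated mice, and Nr4a3 in PFC with chronic cocaine over all mice.

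Chronic cocaine, set against chronic saline over all mice, gave higher Nr4a2 and Nr4a3 in PFC, and neither difference was seen within series 1200, the only one with both arms. Nr4a2 ran from 4.44 through 11.7 to 30.2 CPM in 26 saline libraries and from 9.03 through 18.2 to 36.6 CPM in 28 cocaine libraries, 25 of which lay above the saline median (0.63, SE 0.13, edgeR adjusted p = 0.00334). Nr4a3 ran from 28.8 through 40.0 to 59.8 CPM and from 29.4 through 46.2 to 92.3 CPM, with 22 of 28 above the saline median (0.35, SE 0.08, adjusted p = 0.00778). In PFC 7.12% of all genes tested passed, and 3.93% of all genes tested were higher with cocaine. The other 10 values did not pass: 12 of 12 were above 0, and 6 had an unadjusted p under 0.05. Shares of all genes were 0.0518% in AMY, 0.151% in Nac and 0.0817% in VTA. An unadjusted p under 0.05 was found for 1161 of 17391 genes in AMY and 3313 of 17266 in Nac. In PFC it was found for 3997 of 17003 and in VTA for 975 of 17144. Nr4a3 measured 0.55 in Nac (SE 0.15, adjusted p = 0.0839), 0.42 in AMY (SE 0.16, adjusted p = 0.495) and 0.35 in VTA (SE 0.12, adjusted p = 0.509). DESeq2 passed the Nac value (adjusted p = 0.0394).

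Within series 1200, Nr4a2 in PFC ran from 7.13 through 12.7 to 30.2 CPM in 16 saline libraries and from 9.03 through 15.5 to 18.5 CPM in 8 cocaine libraries. The ranges lay over each other, and the difference was -0.02 (SE 0.19, 95% interval -0.40 to 0.36). Nr4a3 there measured -0.02 (SE 0.11, -0.24 to 0.20). With the series as a term in the fit of all chronic and acute groups, the values were -0.02 for Nr4a2 and -0.06 for Nr4a3. Nr4a2 measured 7.71 ± 2.47 CPM in the saline libraries of series 500 (n = 10) and 14.9 ± 5.42 CPM in those of series 1200 (n = 16). In the cocaine libraries it measured 20.1 ± 6.21 CPM in series 1000 (n = 20) and 14.7 ± 3.52 CPM in series 1200 (n = 8). Nr4a1 in series 1200 measured 0.54 in AMY (SE 0.16, adjusted p = 0.522), 0.63 in Nac (SE 0.13, adjusted p = 0.119) and 0.55 in PFC (SE 0.13, adjusted p = 0.675), and 0.06 in VTA (SE 0.08). In Nac it ran from 26.8 through 39.3 to 68.2 CPM in 18 saline and from 44.1 through 61.0 to 89.6 CPM in 8 cocaine libraries. All 8 of these lay above the saline median in Nac, and 7 of 8 did so in AMY, in PFC and also in VTA, where the difference was small. With the series as a term in the fit over all mice, Nr4a1 in PFC measured 0.50 (SE 0.13, adjusted p = 0.888). None of the 12 values in series 1200 passed with edgeR, and 4 had an unadjusted p under 0.05. All cocaine numbers of this series lie below all saline ones, so drug and stretch of numbers cannot be told apart in it. Of all genes, 0.0178% passed in Nac, 0.00608% in VTA, 0.006% in AMY and 0% in PFC.

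The chronic value of Nr4a2 in PFC was 0.88 in isolated mice (SE 0.19, edgeR adjusted p = 0.00702), where it ran from 4.44 through 11.7 to 18.3 CPM with saline (n = 13) and from 12.5 through 18.2 to 36.6 CPM with cocaine (n = 14), all 14 above the saline median. In group-housed mice it was 0.38 (SE 0.19, adjusted p = 0.779). The difference between housings was 0.50 (SE 0.27, adjusted p = 1) and did not pass, and with the series in the model the isolated value was 0.16 (adjusted p = 1). In all, 1 of 12 values passed in isolated and 0 of 12 in group-housed mice, with 4 at an unadjusted p under 0.05 in each. The shares of all genes were 0.00575%, 10.4%, 4.39% and 0.00583% with isolation and 0.00575%, 0.00579%, 0% and 0.0117% with group housing, in the order AMY, Nac, PFC and VTA. Of the 17391, 17266, 17003 and 17144 genes tested, 788, 4781, 3258 and 582 had an unadjusted p under 0.05 with isolation. With group housing 870, 603, 1088 and 640 did. For the difference between housings, 0 of 12 values passed, 0 had an unadjusted p under 0.05, and 0% of all genes passed in each region. Of all genes tested, 564, 2332, 488 and 258 had an unadjusted p under 0.05, in the same order.

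In the pooled chronic comparison of PFC, 7 of the 29 rapid activity genes were higher and 0 lower, among them Egr2 (1.01), Sik1 (0.50), Fosb (0.39) and Egr1 (0.38). Their edgeR adjusted p-values were 0.00122, 0.00261, 0.0112 and 0.0129. Within series 1200, 0 of the 29 passed in PFC (13 at an unadjusted p under 0.05, median 0.19), and of all genes tested there 0% passed within series 1200 and 0.00581% with the series in the model. An unadjusted p under 0.05 was found for 403 of 16713 PFC genes within series 1200. Of the NR4A partners 1 of 14 was higher, the retinoid X receptor gene Rxra (0.14, adjusted p = 0.0109). Upstream of the family, Mef2c (-0.22) and the kinase gene Camk4 (-0.19) were lower and Crtc3 (0.13) was higher, 3 of 20 genes in all. Of the NURR1 dopamine neuron genes, 4 of 13 measured were higher: Drd2 (1.17), Dlk1 (0.78), Slc6a3 (0.74) and Slc18a2 (0.22). Drd2 is also on the striatal list and Mef2c on the cortical glutamatergic list, so the counts of these lists share genes. Cell-type lists moved in the same pooled comparison: 6 of 10 striatal, 2 of 10 astrocyte and 2 of 11 claustrum and subplate-type genes were higher. Among cortical glutamatergic genes, 3 of 10 were lower. Over all 17003 genes tested, 668 were higher and 542 lower. The claustrum and subplate-type list averaged 4.16 ± 0.24 log2 CPM with cocaine and 4.01 ± 0.29 with saline. With the last list as a covariate, Nr4a2 measured 0.48 (adjusted p = 0.0280) and Nr4a3 0.32 (adjusted p = 0.0671). In AMY, Nac and VTA no rapid activity gene passed, with 9 of 29, 6 of 29 and 3 of 28 at an unadjusted p under 0.05. Of all genes, 1161 of 17391, 3313 of 17266 and 975 of 17144 had such a p, in the same order. Within series 1200, 2 of 29 passed in Nac, and both were higher: Arc (0.83, adjusted p = 0.00411) and the phosphatase gene Dusp1 (0.43, adjusted p = 0.00411).

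Housing and sex left no call on the family. Isolated minus group-housed values ran from -0.23 (Nr4a3 in VTA, SE 0.08) to 0.12 (Nr4a2 in AMY, SE 0.07), 10 of 12 of them below 0. None passed with edgeR, 3 had an unadjusted p under 0.05, and 0% of all genes passed in any region. Nr4a3 in VTA ran from 1.78 through 3.91 to 21.3 CPM in 59 group-housed and from 1.71 through 3.60 to 13.2 CPM in 56 isolated libraries, ranges that lay over each other. Females minus males ran from -0.78 (Nr4a2 in Nac, SE 0.33, adjusted p = 0.424) to 0.07 (Nr4a1 in AMY, SE 0.07), with 0 of 12 past the threshold and 1 at an unadjusted p under 0.05. Of all genes, sex gave 2.19% in AMY, 1.12% in PFC, 0.332% in VTA and 0.272% in Nac. At an unadjusted p under 0.05 it gave 2806, 2247, 1196 and 1570 genes, in that order. Outside Nac, the sex values of the 3 genes lay between -0.10 and 0.07.

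Within groups, the 3 genes did not vary as 1 unit. After each group's mean was taken off, Nr4a1 followed the mean of the rapid activity genes closely in every region: Pearson's r was 0.80, 0.84, 0.84 and 0.76 for AMY, Nac, PFC and VTA (n = 112 to 115), and Spearman's rho 0.79, 0.84, 0.82 and 0.67. Nr4a3 followed them at r of 0.51, 0.76, 0.55 and 0.80 (rho 0.48, 0.74, 0.54 and 0.72). The permutation adjusted p of these 8 values was 1.69e-05 for r. Nr4a2 reached r of 0.28, 0.58, 0.21 and 0.13 (rho 0.26, 0.52, 0.27 and 0.11), with permutation adjusted p-values of 0.00338, 1.69e-05, 0.0308 and 0.178. Without the 2 libraries farthest from the median, Nr4a1 stayed between 0.66 and 0.83, Nr4a3 between 0.52 and 0.74, and Nr4a2 between 0.09 and 0.53. By number series, r ran from 0.45 to 0.95 for Nr4a1, from -0.37 to 0.94 for Nr4a3 and from -0.34 to 0.91 for Nr4a2. The family of correlations held 27 pairs.

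Nr4a1 and Nr4a3 went together in Nac (r = 0.76, rho = 0.75) and VTA (r = 0.66, rho = 0.57), and less in AMY (r = 0.30, rho = 0.31) and PFC (r = 0.28, rho = 0.30), with permutation adjusted p-values of 1.69e-05, 1.69e-05, 0.00129 and 0.00338. Nr4a2 and Nr4a3 went together in AMY (r = 0.64, rho = 0.54) and PFC (r = 0.58, rho = 0.62), less in Nac (r = 0.43, rho = 0.41) and least in VTA (r = 0.24, rho = 0.24), with adjusted p-values of 1.69e-05 for the first 3 regions and 0.0133 for VTA. Without the 2 farthest libraries the Nr4a1 and Nr4a3 values were 0.74, 0.55, 0.33 and 0.35, and those of Nr4a2 and Nr4a3 were 0.59, 0.55, 0.37 and 0.18, in the orders given. Nr4a1 and Nr4a2 shared least, from r = -0.14 in PFC (rho = -0.05, adjusted p = 0.163) to 0.31 in Nac (rho = 0.29, adjusted p = 0.00132). In series 1100, which holds acute libraries only, all 3 pairs were above 0.67 in PFC and above 0.72 in Nac, and in series 500, with 10 libraries, Nr4a1 and Nr4a3 stood at -0.57 in PFC.

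Nr4a2 went instead with lists of neuron markers. In VTA it rose and fell with the dopamine neuron list across libraries (r = 0.86, rho = 0.84, n = 115, permutation adjusted p = 1.69e-05), and r was 0.99, 0.85, 0.78 and 0.91 in series 500, 1000, 1100 and 1200. In PFC it went with the claustrum and subplate-type list (r = 0.62, rho = 0.54, n = 112, permutation adjusted p = 1.69e-05), at 0.90, 0.43, 0.39 and 0.77 by series. In AMY its r with the same list was -0.36 (rho = -0.30, permutation adjusted p = 1.59e-04), carried by series 1000 (-0.58), with -0.07, -0.08 and 0.06 in series 500, 1100 and 1200. In Nac, in pairs added after the data were seen, it went with the cortical glutamatergic list (r = 0.91, rho = 0.83, permutation adjusted p = 1.00e-05) and the claustrum and subplate-type list (r = 0.91, rho = 0.79, permutation adjusted p = 1.00e-05), neither a list of accumbens neurons. Most Nac libraries were low in both, and a tail of libraries was high in both. Without the 2 farthest libraries the values were 0.85 in VTA, 0.57 in PFC, -0.30 in AMY, and 0.89 and 0.90 in Nac. In such bulk samples, fewer cells of a type and less RNA per cell cannot be told apart.

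**Figure D5:**
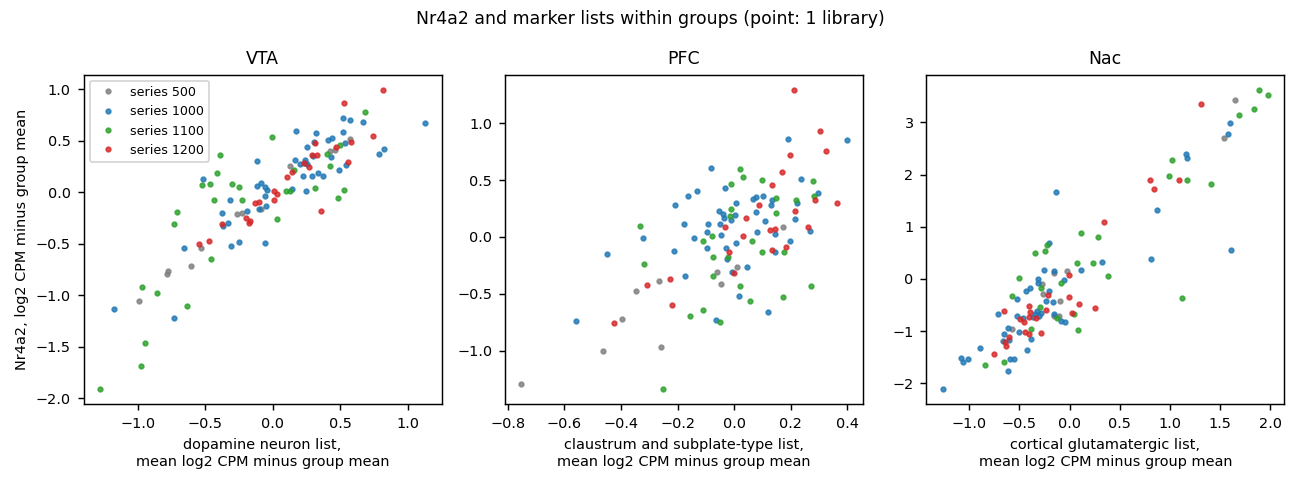
Nr4a2 (log2 CPM minus the group mean) against the mean of a marker list (same scale), with 1 point per library coloured by number series. The points rise together in VTA with the dopamine neuron list (r = 0.86), in PFC with the claustrum and subplate-type list (r = 0.62) and in Nac with the cortical glutamatergic list (r = 0.91).

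Libraries that carry the same title number in different regions were compared in the same way, as a description. For Nr4a1, r between regions ran from 0.29 (PFC and VTA) to 0.63 (Nac and PFC), over 99 to 106 numbers. Nr4a3 ran from 0.15 (AMY and VTA) to 0.65 (Nac and PFC). Nr4a2 lay between -0.12 and 0.05 in all 6 pairs of regions. A number with high Nr4a1 in one region thus tended to be high in the others, and Nr4a2 showed no such link.

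The genes most like each receptor, by the mean over the 4 regions of Pearson's r within groups among 13602 genes, set the same contrast. For Nr4a1 they were Arc (0.72), Junb (0.70), Egr1 (0.69), Dnajb5 (0.69) and Fos (0.62). For Nr4a3 they were Fosl2 (0.79), Fosb (0.66), Klf10 (0.59), Homer1 (0.57) and Dnajb5 (0.57). For Nr4a2 they were Lmo3 (0.62), Cadps2 (0.60), Nptx1 (0.59), Chrna4 (0.58) and Prss12 (0.56). Prss12 stood at 0.91 in Nac and 0.08 in AMY, and Lmo3 was more even, from 0.50 in AMY to 0.84 in VTA. In the list of Nr4a1, Nr4a3 ranked 19 and Nr4a2 ranked 3023. In the list of Nr4a2, Nr4a3 ranked 14 and Nr4a1 ranked 1974.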

How the data were processed

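Gene counts were deposited by the authors as 1 table of whole-number counts, not normalized, over 43346 Ensembl genes and 454 libraries. Per the labels' protocols, libraries were stranded poly-A preparations from 300 ng of RNA with reads of 50 bases, and per the submitters' processing notes STAR, featureCounts, limma and GRCm38/mm10 were used. Not given in the sources used here are the versions of these tools, which gene annotation was counted, and whether counting used strand. No other gene of the table overlaps the spans of the 3 receptor genes in GENCODE M21. Symbols were matched for 42462 IDs. The members, lists and tests were chosen with earlier results of these data known.

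CPM was computed with TMM factors over all libraries (edgeR 4.0.16, R 4.3.3), and correlations used log2(CPM + 0.5) minus the group mean. Contrasts were tested per region with edgeR's robust quasi-likelihood test on 16 group means after its filter on low counts, with Benjamini-Hochberg adjustment over all genes and a threshold of 0.05. Within a number series, only that series was fitted; a run of numbers ends where the title numbers skip more than 5. The fit was tested on simulated counts. Permutation tests (scipy 1.17.1, Python 3.11.15) drew 100000 resamples and were two-sided. Libraries that stand apart had a robust z over 5 on a leading principal component (the first 4 were read) of the 3000 most variable genes, or over 8 on the choroid plexus list. Alternatives were DESeq2 1.42.0, limma voom (limma 3.58.1), no filter on low counts, the number series in the model, libraries left out, and marker lists as covariates and 1 number run of chronic libraries at a time, the last pair chosen after seeing the data.

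Of each list, up to 4 genes past the threshold in a pooled comparison were named, those of lowest p first, with Fos, Egr1, Arc and Npas4 added. List genes named in comparisons within a series were picked after their values were seen. For likeness the 5 genes with the highest mean r were named, among those with at least 1 CPM in each region. Replicate numbers follow accession order and pair no samples. Libraries within a group differed beyond sampling noise (chi-square per degree of freedom of at least 2.81), so none were merged. The values of 1 gene of the partner list are not reported here.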

Additional observations from a re-analysis of the deposited data

Results flagged for a closer look

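In 34 of 192 tests (17.7%), 1 library lay far from the rest of its group of 5 to 8 by the gap to its nearest neighbour over the group's range. In 31 it was the highest and in 3 the lowest, and 5 came from libraries that stand apart from their region. The cut-off flags about 5% of groups of normally distributed values. It was applied to CPM off the log scale, and the 3 genes share libraries, so 5% is not the chance rate here. Values are in CPM, with the range of the rest of the group after each.

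Nr4a2 in Nac gave the most. The high libraries measured 32.0 in group-housed females with chronic cocaine (rest 1.01 to 12.4), 11.4 in group-housed females with chronic saline (1.53 to 2.96) and 40.5 in isolated females with acute cocaine (1.17 to 4.01). They measured 7.12 in isolated females with chronic cocaine (0.886 to 2.49), 11.4 in isolated females with acute saline (1.25 to 3.31) and 32.1 in isolated females with chronic saline (1.06 to 2.12). In males they measured 18 in the group-housed acute cocaine group (1.77 to 7.72), 24.0 in the group-housed chronic saline group (0.834 to 1.89), 91.2 in the isolated acute saline group (1.34 to 38.4) and 17.6 in the isolated chronic saline group (0.843 to 5.43). Across Nac libraries Nr4a2 went with the cortical glutamatergic list (r = 0.91).

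Nr4a1 in Nac measured 63.2 in a group-housed female with chronic saline (26.8 to 40.1), 89.6 in an isolated female with chronic cocaine (30.0 to 51.5), the library that was also high in Nr4a2, 61.7 in a group-housed male with chronic cocaine (36.1 to 47.2) and 109 in an isolated male with chronic cocaine (36.8 to 67.1). Nr4a3 in Nac measured 60.4 in an isolated male with acute cocaine (31.5 to 39.4).

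In AMY, 1 group-housed female library with chronic saline was high in Nr4a2 (15.9, rest 6.84 to 10.6) and Nr4a3 (16.7, rest 9.19 to 12.2). A group-housed male library with acute saline, which stands apart, was high in Nr4a2 (32.7, rest 12.4 to 16.4) and Nr4a3 (90.7, rest 23.6 to 43.2). Nr4a2 measured 31.7 in an isolated male with acute cocaine (13.7 to 15.6) and Nr4a3 measured 61.6 in an isolated male with acute saline (18.9 to 36.4), and both libraries stand apart. Nr4a1 measured 54.4 in an isolated female with chronic cocaine (18.5 to 27.0), 60.5 in an isolated female with acute saline (23.4 to 37.9) and 41.5 in a group-housed male with chronic cocaine (25.4 to 32.3). Nr4a3 measured 80.3 in another isolated female with acute saline (21.0 to 41.7) and 30.4 in an isolated male with chronic cocaine (11.4 to 18). In PFC, Nr4a2 measured 32.9 in an isolated female with chronic cocaine (14.3 to 18.3).

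In VTA, 1 group-housed female library with acute cocaine was high in Nr4a1 (34.4, rest 9.94 to 16.8) and Nr4a3 (21.3, rest 3.13 to 8.69). A group-housed male library with acute saline was also high in both, at 16.3 for Nr4a1 (12.9 to 14.4) and 15.6 for Nr4a3 (5.07 to 9.51). Nr4a2 was low in 3 libraries: 24.0 in a group-housed female with acute saline (94.4 to 136.5), 50.0 in an isolated female with acute cocaine that stands apart (90.3 to 118) and 38.1 in a group-housed male with acute saline (107 to 137). All 5 of these VTA libraries are in series 1100.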

How the results depend on the processing

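Of 553 values under alternatives to 212 results, 17 changed sign, 5 no longer passed and 5 passed newly, and the rest kept their direction and their side of the threshold. With the number series in the model, chronic cocaine measured -0.0231 for Nr4a2 in PFC (group-housed -0.209, isolated 0.16), -0.0574 for Nr4a3 in PFC (-0.0303 and -0.0845), -0.0403 for Nr4a2 in VTA (-0.0941 in isolated mice), -0.19 for Nr4a3 in AMY of group-housed mice and 0.0653 for Nr4a1 in VTA of isolated mice. The count of chronic values that passed was 2 in the pooled edgeR fit, 0 with the series in the model, 3 with DESeq2 and 2 with limma voom. Acute Nr4a2 in PFC of group-housed mice passed with the series in the model (0.68) and without the libraries that stand apart (0.72). Without those libraries acute Nr4a2 in VTA was 0.00953, and acute Nr4a3 in AMY of group-housed mice was 0.00979. Limma voom gave 0.0811 for acute Nr4a2 in VTA, and DESeq2 passed chronic Nr4a3 in Nac at 0.55. With marker lists as covariates, chosen after seeing the data, acute Nr4a2 in Nac measured 0.0794 (group-housed 0.00777, isolated 0.15), acute Nr4a2 in PFC of isolated mice -0.0779, chronic Nr4a3 in PFC 0.32, no longer past the threshold, and the schedule difference of Nr4a2 in VTA -0.58, which passed. In the last of these fits 30.2% of all genes passed. Leaving out each replicate of isolated males with acute cocaine in AMY, the only group of 5, gave -0.0693 to 0.0527 for acute Nr4a3, below 0 only without replicate 2. With the chronic libraries of the lower number run alone, also chosen after seeing the data, the schedule difference no longer passed for Nr4a1 in AMY (-0.288), Nr4a2 in AMY (-0.423) and Nr4a3 in Nac (-0.695), and with the higher run alone Nr4a1 in Nac passed (-0.728). The cause was not tested for any of these. The 9 schedule values that passed did so without the libraries that stand apart. Replicates were not left out in the other groups. Regions were paired by title number. Between drug arms, schedules, housings and sexes no such pairs exist. No paired analysis was possible because there replicate numbers only follow accession order and each title number belongs to 1 group of a region. Depth limits Nr4a2 in Nac most, where counts went down to 15, and also Nr4a3 in VTA, where they went down to 30. Chronic cocaine and chronic saline share 1 number series, and the time from injection to collection is not in the labels used here.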
